A study of Mus musculus with 9 samples.

Results

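The comparison described here set retinal cells sorted 3 days after optic nerve crush against cells sorted from intact retinas, both from wild-type mice, across all genes. It used 6 of the 9 RNA-seq libraries of the study. The group called Ctrl held 3 libraries from normal, uncrushed retinas. The group called ONC held 3 libraries from retinas taken at day 3 after crush of the optic nerve. The remaining 3 libraries, called CKO, came from crushed retinas, also at day 3, of mice with a conditional knockout of ZnT3 in amacrine cells (ZnT3, gene Slc30a3, is a zinc transporter of synaptic vesicles). They shared the statistical fit, and their values are given only beside those of the other groups. All cells were labelled as primary retinal ganglion cells sorted by flow cytometry. The sources used here do not give the gate, the strain, the age or the driver of the knockout, and nothing in the labels ties libraries to separate mice. The p-values therefore measure the spread between these libraries, which may be technical. Of 24772 entries in the count table, 15841 had enough counts to be tested, and 1630 of these were loci that the authors assembled and that carry no gene symbol.

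Retinal ganglion cells are the output neurons of the retina, and their axons form the optic nerve. Crushing the nerve cuts those axons and leaves the rest of the retina in place. Injured ganglion cells switch on stress and regeneration-associated genes and many of them later die, while Müller glia, the radial glia that span the retina, take on a reactive state with more Gfap. Amacrine cells are the inhibitory interneurons that contact ganglion cells, horizontal cells are inhibitory interneurons of the outer retina, and rods and cones are the photoreceptors.

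Library totals ran from 14166888 counts in Ctrl 2 to 25571600 counts in Ctrl 3. Expression is given as CPM (counts scaled to a common library size) after scaling by trimmed mean of M values (TMM), in the order Ctrl 1, 2 and 3 and then ONC columns 3, 5 and 6, which are the numbers of the ONC columns in the count table. Marker sums are in CPM of the library total. The 2 ONC columns 3 and 6 were much closer to each other than any other pair. The correlation of their log2 CPM over genes was 0.992, against 0.957 to 0.965 for pairs within Ctrl and within CKO. Their counts differed by 2.79 times the variance that counting alone gives (9.79 to 12.3 times within Ctrl and CKO). That excess does not show that they came from separate cells, which was not tested. They were kept as 2 libraries, and the values with both summed as 1 are given where they end a call. Column 5 correlated at 0.933 and 0.938 with columns 3 and 6 and at 0.952 to 0.954 with the CKO libraries. Its correlation with the Ctrl libraries was 0.9355 to 0.9396, about the same as with the other ONC columns. In columns 3 and 6 the change against Ctrl also followed the GC content of the transcript. Across the 14207 genes with a GC value, the correlation of the log2 ratio to the Ctrl mean with GC content was 0.477 in column 3, 0.437 in column 6 and 0.135 in column 5, and 0.045 to 0.138 in the CKO libraries; genes are not independent replicates. The part of GC content in the results was not tested beyond a fit with GC and length offsets over those 14207 genes. For genes with a printed fold change that still passed with these offsets or with column 5 alone, the value is given where the log2 fold change moves by over 1.5 times. Where a gene did not pass in them, that is stated, mostly without the fold change, which may have moved by more.

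**Figure D1:**
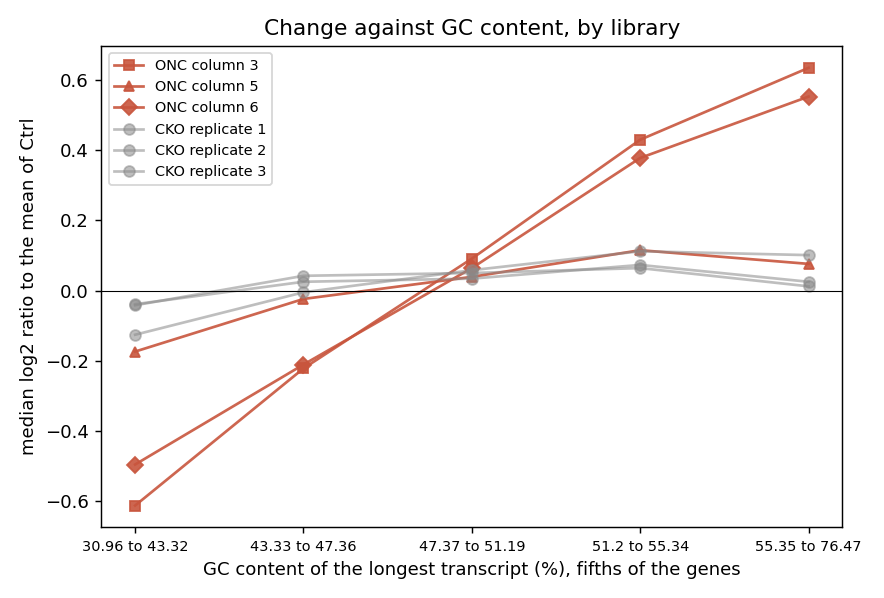
Median log2 ratio of each crush library to the mean of the 3 Ctrl libraries (y axis) in 5 equal bins of genes by GC content in percent (x axis), with 1 line per library. Columns 3 and 6 run from -0.61 and -0.50 in the lowest bin to 0.64 and 0.55 in the highest, while column 5 stays between -0.174 and 0.115.

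Markers of retinal ganglion cells were low in every library. Of 26 listed markers, 24 were in the table and 18 were tested. Their summed level was 191 to 314 CPM in Ctrl and 148 to 196 CPM in ONC. The ganglion cell transcription factor Pou4f1 (Brn3a) was at 0.646, 0.7 and 2.89 CPM in Ctrl and 0.0438, 2.32 and 0 CPM in ONC, and its relative Pou4f2 (Brn3b) did not reach the test, with 2.05 CPM in Ctrl 2 and at most 0.379 CPM in the other 5 libraries. Sncg, gamma-synuclein, was at 3.51, 11.6 and 71.9 CPM in Ctrl and 3.59, 28.5 and 3.33 CPM in ONC. Slc17a6, the vesicular glutamate transporter of ganglion cells, was at 0.646, 2.45 and 4.03 CPM in Ctrl and 2.06, 12.7 and 1.96 CPM in ONC. In each of these 3 genes Ctrl 3 was the highest intact library and column 5 the highest crush library, and the groups overlapped. Pou4f1 passed without ONC column 5 (edgeR adjusted p = 0.00756). Sncg passed without ONC column 5 (edgeR adjusted p = 0.0135). Markers of rods took far more of the counts, 94522 to 95509 CPM in Ctrl and 107272 to 118419 CPM in ONC. The label of these samples as ganglion cells is thus not borne out by the markers, and the cells are called sorted retinal cells below. In such bulk libraries fewer cells of a type and less RNA per cell cannot be told apart.

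**Figure D2:**
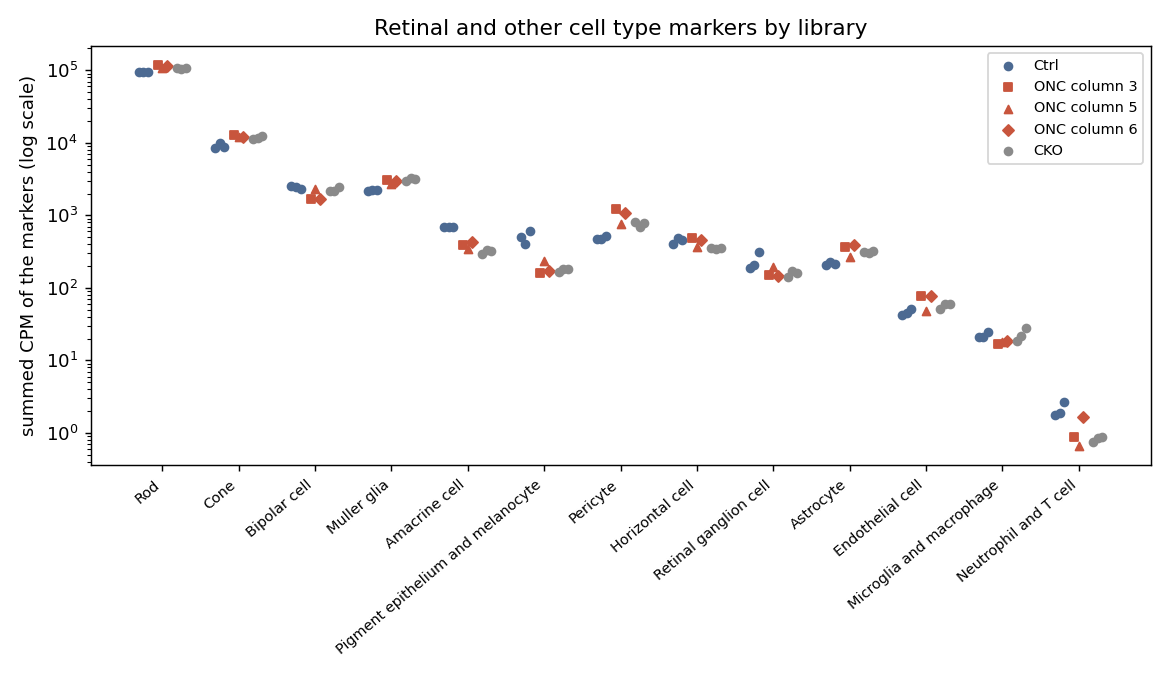
Summed CPM of the markers of each cell type (y axis, log scale) in each Ctrl, ONC and CKO library, cell types ordered by their Ctrl mean on the x axis. Rod markers lie at 94522 to 95509 CPM in Ctrl, and amacrine markers lie at 690 to 698 CPM in Ctrl and at 346 to 428 CPM in ONC.

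At an edgeR adjusted p under 0.05, 2057 genes were higher after crush (13.0% of those tested) and 2023 were lower (12.8%). The median log2 fold change over all genes tested was -0.04. A change of at least 2-fold was found in 863 of the higher and 923 of the lower genes, and a change of at least 4-fold in 97 and 282. The 3 ONC libraries all lay above the 3 Ctrl libraries for 2895 genes (18.3%) and all below for 3362 (21.2%). The test was repeated under 15 alternatives, which changed the scaling, the filter, the test, the libraries used or the GC correction. The same direction passed in every analysis for 404 genes (2.55%) and 210 genes (1.33%), and these are called stable below. Of the higher genes 2018 were protein coding, as were 1761 of the lower genes, which also held 261 assembled loci. The higher genes had a median GC content of 53.6% and the lower genes of 43.9%, against 49.3% for all genes tested. Of all calls 50.4% were higher in the main fit. Over the 14207 genes with a GC value it was 53.4% in the main fit and 66.2% with GC and length offsets, and over the genes each fit tested it was 63.3% with column 5 as the only ONC library and 63.0% with columns 3 and 6 summed. Brackets after the count of a list give the percent of its tested members that were called, to be read against 13.0% higher and 12.8% lower over all genes. They then give its counts higher and lower, and for some lists the median, in those 3 alternatives where they move by at least 1.5 times. These counts are to be read against the calls over all genes in the same alternative. With columns 3 and 6 summed these were 1221 higher and 718 lower of 16449 tested. With the offsets they were 2231 and 1140 of 14207. Column 5 alone also called fewer genes over all, so a smaller count there is by itself no result about a list. For the astrocyte, pigment cell and crystallin lists the counts with column 5 alone are left out. The microglia, pericyte, erythrocyte and neutrophil lists carry no brackets.

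**Figure D3:**
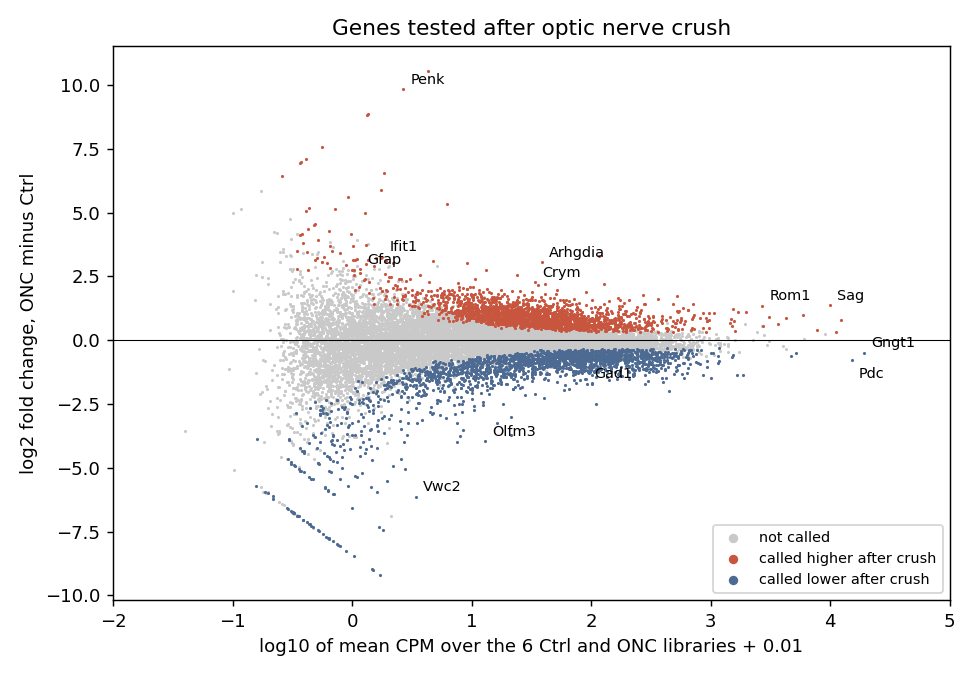
Log2 fold change of ONC minus Ctrl (y axis) against the log10 of mean CPM plus 0.01 over the 6 libraries (x axis) for the 15841 genes tested. Called genes fall in about equal number above and below 0, and the points along the lower left edge are genes with few or no counts in ONC, whose fitted change is no estimate of size.

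The stable rises with large changes included Arhgdia, Lypla2, Trf and Fzd10. Arhgdia, which encodes a GDP-dissociation inhibitor of small GTPases that control the cytoskeleton and lies at chr11:120578104-120581624 (GRCm38), was at 9.33, 5.46 and 10.2 CPM in Ctrl and 82.3, 49.1 and 77 CPM in ONC. The groups did not overlap, and column 5 was the lowest ONC library; the log2 fold change was 3.05 ± 0.27 (SE), edgeR adjusted p = 0.000255. In the CKO libraries Arhgdia was at 10.5, 9.98 and 8.58 CPM. Lypla2, an acyl-protein thioesterase that removes palmitate from proteins, was at 6.79, 6.79 and 7.0 CPM in Ctrl and 51.6, 24.9 and 45.9 CPM in ONC (log2 fold change 2.57 ± 0.30 (SE), edgeR adjusted p = 0.00101). Trf, transferrin, the plasma carrier of iron, was at 4.57, 2.03 and 3.36 CPM in Ctrl and 22.6, 25.7 and 20.5 CPM in ONC (2.77 ± 0.39 (SE), edgeR adjusted p = 0.00163); 63.5% of its exonic length is shared with another annotated gene on the same strand, so its counts may be split. Fzd10, a Frizzled receptor for Wnt ligands, was at 0.554, 1.47 and 1.23 CPM in Ctrl and 6.27, 6.12 and 6.71 CPM in ONC (2.56 ± 0.44 (SE), edgeR adjusted p = 0.00331). All 3 ONC libraries of these genes stood above all 3 Ctrl libraries, which the rule that named them required. Efna1, the ligand ephrin-A1, was near its detection limit in Ctrl, with 0.0923, 0.07 and 0.119 CPM in Ctrl and 1.18, 3.16 and 1.17 CPM in ONC (edgeR adjusted p = 0.00664), and column 5 was the highest library. Zcchc24, a zinc finger gene, had the same order, with 0.185, 0.56 and 0.198 CPM in Ctrl and 1.58, 5.03 and 1.83 CPM in ONC (3.20 ± 0.70 (SE), edgeR adjusted p = 0.00842). Gm47283, a locus on chromosome Y with near copies elsewhere, was at 23.7, 17.1 and 23.5 CPM in Ctrl and 239.9, 158 and 232 CPM in ONC, and its value is uncertain because reads of copies can be split.

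Other large rises were less even across the libraries. Penk, proenkephalin, the precursor of the enkephalin opioid peptides, had no count in Ctrl and was at 1.84, 12.3 and 1.83 CPM in ONC. The limit that a count of 0 allows was 0.117 to 0.212 CPM in the Ctrl libraries (3 counts, counting error only). All 3 ONC libraries were above it and column 5 was the highest. Gm45140 had no count in Ctrl and 15.3, 0.0493 and 10.7 CPM in ONC; column 5 was at a single count, and the locus shares 80.9% of its exonic length with Rab43. Gm45140 did not pass without Ctrl 1, Ctrl 2, Ctrl 3, ONC column 3 or ONC column 6 (edgeR adjusted p = 0.0802 to 0.118). Gm45140 also did not pass with column 5 as the only ONC library (adjusted p = 0.674, edgeR) or with columns 3 and 6 summed (adjusted p = 0.0864). Scrn2, secernin 2, was at 3.28, 1.54 and 1.11 CPM in Ctrl and 23.5, 5.13 and 20.1 CPM in ONC (3.03 ± 0.59 (SE), edgeR adjusted p = 0.00568). Scrn2 did not pass with column 5 as the only ONC library (adjusted p = 0.196, edgeR). Pcdhgc4, a member of the gamma protocadherin cluster, which are adhesion proteins of neurons, was at 2.35, 5.32 and 2.53 CPM in Ctrl and 20.6, 11.2 and 21.8 CPM in ONC (2.41 ± 0.42 (SE), edgeR adjusted p = 0.00379), and it shares 37.9% of its exonic length with other members of the cluster. Pcdhgc4 did not pass with column 5 as the only ONC library (adjusted p = 0.0608, edgeR). Armc7 was at 0.646, 0.77 and 0.909 CPM in Ctrl and 4.43, 3.31 and 4.59 CPM in ONC and Pm20d2 at 1.11, 0.63 and 0.672 CPM in Ctrl and 5.13, 3.06 and 4.63 CPM in ONC. Armc7 did not pass with column 5 as the only ONC library (adjusted p = 0.0731, edgeR). Pm20d2 did not pass with column 5 as the only ONC library (adjusted p = 0.141, edgeR). Tst, thiosulfate sulfurtransferase (rhodanese), a mitochondrial enzyme that detoxifies cyanide, was at 1.11, 0.49 and 0.237 CPM in Ctrl and 2.81, 5.63 and 1.83 CPM in ONC (2.47 ± 0.61 (SE), edgeR adjusted p = 0.0143), and passed in every alternative. Pdlim4 was at 0, 1.40 and 1.54 CPM in Ctrl and 5.30, 4.54 and 5.50 CPM in ONC (2.39 ± 0.81 (SE), edgeR adjusted p = 0.0487). Pdlim4 did not pass without Ctrl 2, Ctrl 3, ONC column 3 or ONC column 6 (edgeR adjusted p = 0.0657 to 0.105). Pdlim4 also did not pass with column 5 as the only ONC library (adjusted p = 0.205, edgeR), with columns 3 and 6 summed (adjusted p = 0.0997), with GC and length offsets (adjusted p = 0.0767) or in the fit of 6 libraries (adjusted p = 0.0926).

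The stable falls with large changes included Olfm3, Neto2, Calb1 and Rasgrp1. Olfm3, a secreted olfactomedin that associates with AMPA receptors, lies at chr3:114904078-115125722 and was at 22.3, 26.4 and 24.9 CPM in Ctrl and 1.71, 1.14 and 1.88 CPM in ONC (-3.95 ± 0.32 (SE), edgeR adjusted p = 0.000145). Neto2, an auxiliary subunit of kainate receptors, was at 40.5, 33.6 and 39.6 CPM in Ctrl and 5.04, 4.14 and 4.79 CPM in ONC (-3.02 ± 0.31 (SE), edgeR adjusted p = 0.000605). In both genes the ONC libraries lay close together and far below Ctrl. Calb1, the calcium buffer calbindin, was at 16, 51.5 and 50.5 CPM in Ctrl and 1.93, 4.89 and 2.29 CPM in ONC (-3.70 ± 0.47 (SE), edgeR adjusted p = 0.0013), with Ctrl 1 well below the other intact libraries and still above all ONC libraries. Cbln2, a cerebellin that bridges presynaptic neurexins to postsynaptic receptors, was at 14.9, 13.2 and 18.5 CPM in Ctrl and 0.658, 2.96 and 0.459 CPM in ONC (-3.53 ± 0.57 (SE), edgeR adjusted p = 0.00264). Rasgrp1, a calcium- and diacylglycerol-sensitive activator of Ras, was at 11, 12 and 19.5 CPM in Ctrl and 1.36, 0.345 and 0.959 CPM in ONC (-3.98 ± 0.52 (SE), edgeR adjusted p = 0.00134). Plcb1, a phospholipase C driven by Gq-coupled receptors, was at 8.54, 6.30 and 3.95 CPM in Ctrl and 0.175, 0.592 and 1.21 CPM in ONC (-3.23 ± 0.65 (SE), edgeR adjusted p = 0.00628). The groups did not overlap in these genes, which the rule that named all of them but Neto2 required. Ptprk, a receptor tyrosine phosphatase, was at 11.2, 11.1 and 10.4 CPM in Ctrl and 0.614, 2.42 and 0.959 CPM in ONC (-3.04 ± 0.46 (SE), edgeR adjusted p = 0.00208). Col6a1, a chain of collagen VI, was at 17, 11.1 and 13.2 CPM in Ctrl and 2.10, 0.0987 and 2.04 CPM in ONC, with column 5 at 2 counts. Rgs13, a regulator that shuts off G protein signals, was at 2.54, 3.01 and 2.85 CPM in Ctrl and 0, 0.148 and 0 CPM in ONC; the 3 ONC libraries held 3 counts in all, and the CKO libraries stood at 5.04, 2.48 and 3.11 CPM.

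Further large falls passed in 14 of 15 alternatives each. Vwc2, brorin, a secreted antagonist of bone morphogenetic proteins, was at 5.22, 8.89 and 6.01 CPM in Ctrl and 0.132, 0.0493 and 0.0834 CPM in ONC, so that each ONC library held 1 to 3 counts. Gng8, a G protein gamma subunit, was at 5.26, 5.60 and 5.10 CPM in Ctrl and 0, 0.444 and 0.0417 CPM in ONC. Crabp2, a cellular binding protein of retinoic acid, was at 6.09, 3.71 and 5.46 CPM in Ctrl and 0.438, 0.345 and 0.167 CPM in ONC (-3.99 ± 0.57 (SE), edgeR adjusted p = 0.00172). Fgf1, a fibroblast growth factor, was at 4.89, 6.79 and 4.23 CPM in Ctrl and 0.175, 0.789 and 0.25 CPM in ONC (-3.71 ± 0.59 (SE), edgeR adjusted p = 0.00251). Plcxd3 was at 6.79, 5.95 and 2.10 CPM in Ctrl and 0.263, 0.0987 and 0.208 CPM in ONC. These genes did not reach the filter at 1 CPM in 6 of the 9 libraries, the alternative in which they had no test. Arhgap15, which switches off the GTPase Rac, was at 1.94, 5.53 and 5.22 CPM in Ctrl and 0.132, 0.0493 and 0.208 CPM in ONC (edgeR adjusted p = 0.00241), and in CKO it stood at 0.779, 3.33 and 3.16 CPM. Kcna1, the potassium channel Kv1.1 of axons, was at 6.09, 6.37 and 3.28 CPM in Ctrl and 0.219, 1.28 and 0.167 CPM in ONC (-3.25 ± 0.72 (SE), edgeR adjusted p = 0.0092). Kcna1 did not pass with column 5 as the only ONC library (adjusted p = 0.114, edgeR).

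**Figure D4:**
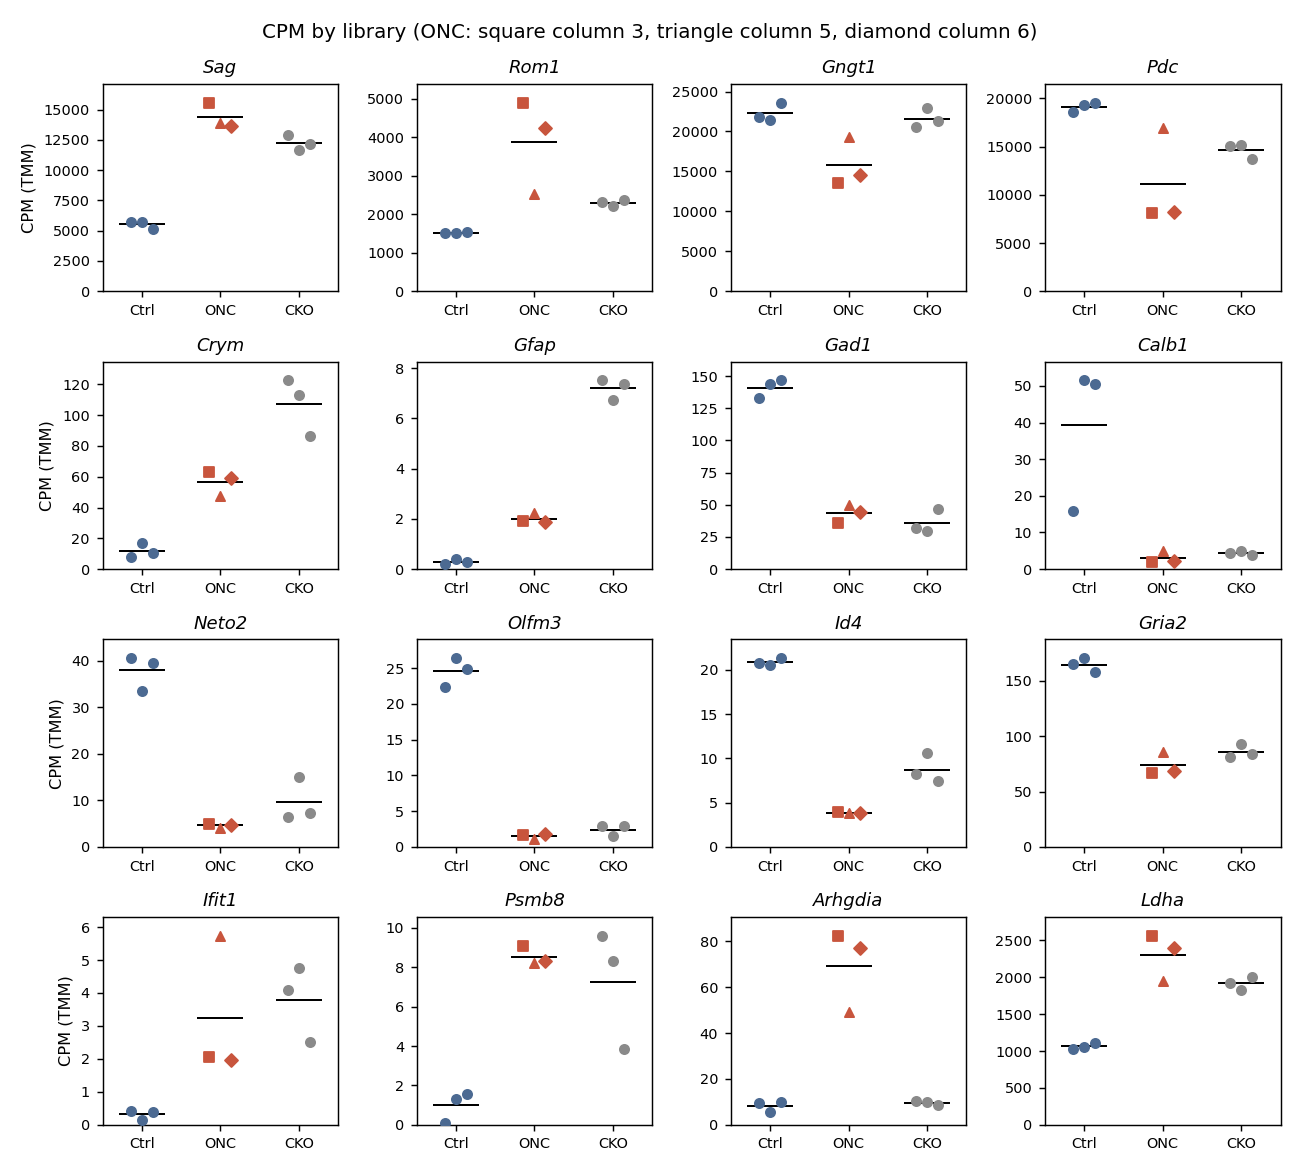
TMM-scaled CPM (y axis, from 0) of 16 genes in each of the 3 Ctrl, 3 ONC and 3 CKO libraries, with the mean of each group as a line. Sag, Rom1, Crym, Gfap, Ifit1, Psmb8, Arhgdia and Ldha lie higher in all ONC than in all Ctrl libraries and Gad1, Calb1, Neto2, Olfm3, Id4 and Gria2 lower, whereas in Gngt1 and Pdc column 5 lies nearer to Ctrl than columns 3 and 6.

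Rod genes did not move as 1 block in the main fit. All 21 listed rod genes were tested, and 15 were higher and 3 lower, with a median log2 fold change of 0.79; 11 rises and no fall were stable (71.4% higher, 14.3% lower, 13 and 1 and a median of 0.51 with column 5 alone, 14 and 1 with columns 3 and 6 summed, 13 and 0 with the offsets). The promoters of 3 of these genes and of 1 interferon-induced gene are shown, as examples of those that hold the motifs searched. Each is the 200 bases before the RefSeq start site (GRCm38.p6), written 5′ to 3′ on the strand of the gene. Capitals mark GGATTA, the core that the photoreceptor factor CRX binds, in the rod genes, and the interferon-response core GAAANNGAAA in Ifit1, where both copies are on the opposite strand and read TTTCACTTTC and TTTCAGTTTC. Sag and Samd7 rose after crush, Gngt1 fell, and Ifit1 rose.
Sag, chr1:87803480-87803679, plus strand: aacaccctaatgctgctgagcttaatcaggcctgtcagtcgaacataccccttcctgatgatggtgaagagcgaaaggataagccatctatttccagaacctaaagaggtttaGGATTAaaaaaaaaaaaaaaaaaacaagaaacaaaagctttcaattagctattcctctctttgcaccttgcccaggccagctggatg
Samd7, chr3:30746093-30746292, plus strand: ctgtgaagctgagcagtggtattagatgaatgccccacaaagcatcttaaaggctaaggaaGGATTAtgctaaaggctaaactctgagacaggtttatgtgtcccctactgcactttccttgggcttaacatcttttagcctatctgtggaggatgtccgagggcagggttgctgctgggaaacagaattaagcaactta
Gngt1, chr6:3993808-3994007, plus strand: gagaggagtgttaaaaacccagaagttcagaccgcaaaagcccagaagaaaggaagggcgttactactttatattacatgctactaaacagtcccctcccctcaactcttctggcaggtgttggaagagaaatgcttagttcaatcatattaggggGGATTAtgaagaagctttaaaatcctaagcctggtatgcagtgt
Ifit1, chr19:34640689-34640888, plus strand: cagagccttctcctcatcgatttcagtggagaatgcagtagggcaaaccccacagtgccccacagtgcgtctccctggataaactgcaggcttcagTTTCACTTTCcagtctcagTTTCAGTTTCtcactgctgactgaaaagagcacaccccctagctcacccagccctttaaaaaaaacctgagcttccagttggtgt
Both strands were searched, and the 2 motifs were counted separately. GGATTA was found in 4 of the 13 rod genes with a promoter in the RefSeq table (30.8%), 3 of them called higher and 1 lower, in 3 of 10 cone genes and in 452 of 11058 tested genes (4.09%). It was in 4.3% of the genes called higher and 5.13% of those called lower. The interferon motif was found in 5 of 17 interferon-stimulated genes (29.4%) and in 208 of the 11058 genes (1.88%). A match describes these letters only and is no evidence of binding.

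Rod arrestin and the disc rim proteins rose. Sag, rod arrestin, which ends the light signal of the rod, was at 5711, 5695 and 5152 CPM in Ctrl and 15592, 13877 and 13677 CPM in ONC (1.38 ± 0.09 (SE), edgeR adjusted p = 2.00e-05). Prph2 and Rom1 form the rim of the outer segment discs: Prph2 was at 1298, 1249.8 and 1214 CPM in Ctrl and 3221, 1885 and 2885 CPM in ONC (1.09 ± 0.17 (SE), edgeR adjusted p = 0.00213). Rom1 was at 1506, 1522 and 1537 CPM in Ctrl and 4903, 2517 and 4231 CPM in ONC (1.35 ± 0.19 (SE), edgeR adjusted p = 0.00156). Each ONC library was above each Ctrl library, and in Prph2 and Rom1 column 5 lay below columns 3 and 6. The log2 fold change with column 5 alone was 0.75 for Rom1 and 0.61 for Prph2, less than the fit of all libraries by over 1.5 times on the log2 scale, and both passed. Among the factors that set rod identity, Nr2e3, a nuclear receptor, was at 369, 356 and 302 CPM in Ctrl and 970.2, 602 and 907 CPM in ONC (1.27 ± 0.17 (SE), edgeR adjusted p = 0.00134). Samd7, a repressor that acts with Polycomb proteins in rods, was at 67.5, 67.4 and 72.5 CPM in Ctrl and 213, 157 and 188 CPM in ONC (1.43 ± 0.13 (SE), edgeR adjusted p = 0.000406). The master factor Nrl was at 603, 546 and 607 CPM in Ctrl and 814, 667 and 863 CPM in ONC (0.42 ± 0.12 (SE), edgeR adjusted p = 0.0276). Nrl did not pass without Ctrl 1, Ctrl 2, ONC column 3 or ONC column 6 (edgeR adjusted p = 0.052 to 0.0779). Nrl also did not pass with column 5 as the only ONC library (adjusted p = 0.233, edgeR), with columns 3 and 6 summed (adjusted p = 0.0641), with GC and length offsets (adjusted p = 0.0725) or in the fit of 6 libraries (adjusted p = 0.0576). On the log2 scale, column 5 alone gave 0.84 for Nr2e3.

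Within the phototransduction cascade the members diverged in the main fit. Gnat1, the alpha subunit of the rod G protein transducin, was at 4194, 4029 and 3794 CPM in Ctrl and 9225, 5618 and 8721 CPM in ONC (0.97 ± 0.16 (SE), edgeR adjusted p = 0.00283). Gnb1, its beta subunit, was at 6809.9, 7034 and 6271 CPM in Ctrl and 8361, 9845 and 7974 CPM in ONC (0.38 ± 0.10 (SE), edgeR adjusted p = 0.0211). Gngt1, its gamma subunit, was at 21801, 21494 and 23625 CPM in Ctrl and 13609.5, 19315 and 14497 CPM in ONC (-0.50 ± 0.12 (SE), edgeR adjusted p = 0.0133). All 3 ONC libraries of Gngt1 lay below Ctrl, column 5 by the least. Gngt1 did not pass without Ctrl 3, ONC column 3 or ONC column 6 (edgeR adjusted p = 0.0545 to 0.0635). Gngt1 also did not pass with column 5 as the only ONC library (adjusted p = 0.114, edgeR), with columns 3 and 6 summed (adjusted p = 0.0574), with GC and length offsets (adjusted p = 0.167) or in the fit of 6 libraries (adjusted p = 0.0572). With the GC and length offsets its log2 fold change turned to 0.15. Pdc, phosducin, which holds the transducin beta-gamma complex, was at 18624, 19266 and 19570.3 CPM in Ctrl and 8123, 16970.5 and 8216 CPM in ONC (-0.79 ± 0.23 (SE), edgeR adjusted p = 0.0265). Column 5 lay near Ctrl, and columns 3 and 6 were at about the same lower level. Pdc did not pass without Ctrl 1, Ctrl 2, Ctrl 3, ONC column 3 or ONC column 6 (edgeR adjusted p = 0.065 to 0.104). Pdc also did not pass with column 5 as the only ONC library (adjusted p = 0.151, edgeR), with columns 3 and 6 summed (adjusted p = 0.0997), with GC and length offsets (adjusted p = 0.151) or in the fit of 6 libraries (adjusted p = 0.0758). Among the subunits of the phosphodiesterase that lowers cyclic GMP in light, Pde6b was at 1102, 1119 and 999.9 CPM in Ctrl and 2153, 1539.9 and 1958 CPM in ONC (0.81 ± 0.13 (SE), edgeR adjusted p = 0.00235). Pde6a was at 618, 568 and 614 CPM in Ctrl and 695, 572 and 699 CPM in ONC, which did not pass (adjusted p = 0.454, edgeR). Pde6a passed without ONC column 5 (edgeR adjusted p = 0.0117). Of the cyclic nucleotide-gated channel, the subunit Cngb1 was at 334, 339.7 and 338 CPM in Ctrl and 890.5, 449.7 and 848 CPM in ONC (1.11 ± 0.21 (SE), edgeR adjusted p = 0.00465) and the subunit Cnga1 at 2271, 2250.0 and 2331 CPM in Ctrl and 2260.0, 2341 and 2192 CPM in ONC, which did not pass (adjusted p = 0.933, edgeR). Cnga1 passed with GC and length offsets (adjusted p = 0.00799, edgeR). Guca1a and Guca1b, the calcium sensors that drive guanylate cyclase after a flash, both rose: Guca1a was at 2854, 2937 and 3198 CPM in Ctrl and 5979.5, 5358 and 5157 CPM in ONC (0.88 ± 0.09 (SE), edgeR adjusted p = 0.000693). Guca1b was at 663, 604 and 599.6 CPM in Ctrl and 1565, 868 and 1501 CPM in ONC (1.08 ± 0.19 (SE), edgeR adjusted p = 0.00382). Rp1, a microtubule protein of the outer segment axoneme, was at 5787, 5671 and 5512 CPM in Ctrl and 3833, 3677 and 3670.4 CPM in ONC (-0.60 ± 0.09 (SE), edgeR adjusted p = 0.00163). Its 3 ONC libraries agreed closely, and the offsets for GC and length ended the call (adjusted p = 0.994, edgeR). On the log2 scale, column 5 alone gave 0.51 for Gnat1, 0.58 for Gnb1, 0.44 for Cngb1 and 0.51 for Guca1b. The GC and length offsets gave a log2 fold change of 0.71 for Guca1b.

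Of 15 cone genes tested 4 were higher, all 4 stable, and none lower (26.7% higher, 6 and 0 with column 5 alone, 7 and 0 with the offsets). Arr3, cone arrestin, was at 233, 269.7 and 224 CPM in Ctrl and 871, 771 and 787 CPM in ONC (1.74 ± 0.12 (SE), edgeR adjusted p = 2.00e-05). Gnb3, the cone transducin beta subunit, was at 139, 180.4 and 139 CPM in Ctrl and 491, 269.6 and 463 CPM in ONC (1.42 ± 0.21 (SE), edgeR adjusted p = 0.00189). The cone opsins were not called: Opn1sw was at 1199, 1426 and 961 CPM in Ctrl and 1038, 1314 and 959 CPM in ONC, with overlapping groups, and Opn1mw at 1178, 1621 and 1323 CPM in Ctrl and 820.1, 1546 and 746 CPM in ONC, with columns 3 and 6 below Ctrl and column 5 within it. Opn1mw passed without ONC column 5 (edgeR adjusted p = 6.94e-05). The log2 fold change from column 5 alone was 0.85 for Gnb3. Guca1a, given above with the rod genes, is also on the cone list and is 1 of the 4 stable rises.

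The called markers of Müller glia were mainly higher. All 23 were tested, and 13 were higher and 2 lower, with a median log2 fold change of 0.74 and 7 stable rises (56.5% higher, 8.7% lower, 8 and 0 with column 5 alone, 10 and 0 with columns 3 and 6 summed). Rlbp1, the retinoid carrier CRALBP, was at 63.9, 75.4 and 56.7 CPM in Ctrl and 136, 111 and 126 CPM in ONC (0.93 ± 0.15 (SE), edgeR adjusted p = 0.0027). Clu, the secreted chaperone clusterin, was at 150.2, 133 and 139 CPM in Ctrl and 286, 253 and 277 CPM in ONC (0.95 ± 0.11 (SE), edgeR adjusted p = 0.00108). Crym, mu-crystallin, which binds thyroid hormone, was at 8.08, 16.9 and 10.4 CPM in Ctrl and 63, 47.3 and 59.2 CPM in ONC (2.27 ± 0.25 (SE), edgeR adjusted p = 0.000939). In these 3 genes the groups were far apart. Gfap, the glial filament protein, was at 0.185, 0.42 and 0.277 CPM in Ctrl and 1.93, 2.22 and 1.88 CPM in ONC (2.79 ± 0.42 (SE), edgeR adjusted p = 0.00195), which is close to the detection limit in Ctrl, and in CKO it was at 7.52, 6.74 and 7.36 CPM. Vim, vimentin, was at 12.8, 14 and 11.4 CPM in Ctrl and 23, 21.6 and 19.2 CPM in ONC (0.74 ± 0.17 (SE), edgeR adjusted p = 0.0107). Vim did not pass with column 5 as the only ONC library (adjusted p = 0.0616, edgeR). Apoe, the lipid carrier, was at 66.6, 98.2 and 97.4 CPM in Ctrl and 348, 129 and 304 CPM in ONC (1.58 ± 0.29 (SE), edgeR adjusted p = 0.00465), with column 5 closest to Ctrl. Apoe did not pass with column 5 as the only ONC library (adjusted p = 0.0603, edgeR). Aqp4, the glial water channel, was at 15.2, 18.6 and 18.9 CPM in Ctrl and 41.9, 17.2 and 40.6 CPM in ONC (0.92 ± 0.28 (SE), edgeR adjusted p = 0.0311), with column 5 inside the Ctrl range. Aqp4 did not pass without Ctrl 1, Ctrl 2, Ctrl 3, ONC column 3 or ONC column 6 (edgeR adjusted p = 0.0656 to 0.11). Aqp4 also did not pass with column 5 as the only ONC library (adjusted p = 1, edgeR), with columns 3 and 6 summed (adjusted p = 0.101) or in the fit of 6 libraries (adjusted p = 0.0685). Glul, glutamine synthetase, was at 382, 349.7 and 345 CPM in Ctrl and 549, 407 and 535 CPM in ONC (0.47 ± 0.14 (SE), edgeR adjusted p = 0.0306). Glul did not pass without Ctrl 2, Ctrl 3, ONC column 3 or ONC column 6 (edgeR adjusted p = 0.0709 to 0.0883). Glul also did not pass with column 5 as the only ONC library (adjusted p = 0.352, edgeR), with columns 3 and 6 summed (adjusted p = 0.0779) or in the fit of 6 libraries (adjusted p = 0.0527). The 2 lower markers were Gpr37 and Spc25: Spc25 was at 293, 269 and 274 CPM in Ctrl and 85.6, 245 and 87.1 CPM in ONC (-1.001 ± 0.33 (SE), edgeR adjusted p = 0.0461). Spc25 did not pass without Ctrl 1, Ctrl 2, Ctrl 3, ONC column 3 or ONC column 6 (edgeR adjusted p = 0.104 to 0.165). Spc25 also did not pass with column 5 as the only ONC library (adjusted p = 0.566, edgeR), with columns 3 and 6 summed (adjusted p = 0.162), in the fit of 6 libraries (adjusted p = 0.0964) or with DESeq2 (adjusted p = 0.0854). Offsets for GC and length moved the log2 fold change to 0.59 for Clu and 1.44 for Aqp4.

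Called markers of inhibitory interneurons were mainly lower. Of 22 amacrine markers 18 were tested; 7 were lower, 5 of them stable, and none was higher, with a median log2 fold change of -0.90, which was -0.93 with column 5 alone and -0.91 with GC and length offsets (38.9% lower, 1 and 8 with the offsets). Gad1 and Gad2, the enzymes that make GABA, were at 133, 143 and 147 CPM in Ctrl and 35.5, 49.9 and 44.6 CPM in ONC (-1.70 ± 0.19 (SE), edgeR adjusted p = 0.000939) and at 26.2, 29.4 and 21.5 CPM in Ctrl and 9.47, 6.22 and 10.1 CPM in ONC (-1.58 ± 0.24 (SE), edgeR adjusted p = 0.00205). Pax6, a factor of amacrine and ganglion cells, was at 93.4, 104 and 114 CPM in Ctrl and 40.9, 48.7 and 43.4 CPM in ONC (-1.23 ± 0.14 (SE), edgeR adjusted p = 0.00101). Tfap2a, a transcription factor of amacrine cells, was at 13.9, 14.1 and 10.6 CPM in Ctrl and 2.85, 4.29 and 3.25 CPM in ONC (-1.89 ± 0.32 (SE), edgeR adjusted p = 0.00328). Tfap2a did not pass with column 5 as the only ONC library (adjusted p = 0.0637, edgeR). Every ONC library lay below every Ctrl library in these genes. Slc6a9, a listed amacrine marker not called in the main fit, had a positive log2 fold change of 1.43. Its value was 1.89 without ONC column 5 and -0.054 with column 5 alone. Meis2, another amacrine marker, was at 82.6, 66.8 and 61.9 CPM in Ctrl and 91.7, 67.2 and 90.9 CPM in ONC and did not pass (adjusted p = 0.318, edgeR), and Prox1 was at 80.3, 74.5 and 66.4 CPM in Ctrl and 50.5, 79 and 50.5 CPM in ONC (adjusted p = 0.249). Meis2 passed without ONC column 5 (edgeR adjusted p = 0.0244). Meis2 also passed with GC and length offsets (adjusted p = 0.0256, edgeR). Prox1 passed without ONC column 5 (edgeR adjusted p = 0.00554). Of 11 horizontal cell markers 8 were tested, with 1 higher and 4 lower (12.5% higher, 50% lower, 1 and 2 with column 5 alone). Slc4a3, a bicarbonate exchanger, was at 15.2, 20.2 and 20.5 CPM in Ctrl and 7.80, 4.79 and 6.79 CPM in ONC (-1.53 ± 0.28 (SE), edgeR adjusted p = 0.00414). Onecut1, a factor that specifies horizontal cells, was at 1.75, 1.40 and 0.988 CPM in Ctrl and 0, 0.0493 and 0 CPM in ONC, so that the 3 ONC libraries held 1 count in all. Onecut1 did not pass with column 5 as the only ONC library (adjusted p = 0.138, edgeR). Ndrg1 was the higher member, at 119, 131 and 122 CPM in Ctrl and 277, 163 and 254 CPM in ONC (0.90 ± 0.17 (SE), edgeR adjusted p = 0.00523). The estimate from column 5 alone, on the log2 scale, was 0.42 for Ndrg1.

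Bipolar and ganglion cell markers showed mixed calls. Of 23 bipolar markers 4 were higher and 6 lower, with 1 stable in each direction, and their median was -0.17 (17.4% higher, 26.1% lower, 2 and 1 with column 5 alone, 1 and 1 and a median of -0.03 with columns 3 and 6 summed, 3 and 3 and a median of -0.34 with the offsets). Otx2, a factor of photoreceptors and bipolar cells, was at 211, 185 and 187 CPM in Ctrl and 273, 275 and 279 CPM in ONC (0.50 ± 0.11 (SE), edgeR adjusted p = 0.00795). Zfhx4 was at 59.8, 63.9 and 70.9 CPM in Ctrl and 16.7, 31.4 and 17.4 CPM in ONC (-1.57 ± 0.24 (SE), edgeR adjusted p = 0.00202). Scgn, secretagogin, a calcium sensor of cone bipolar cells, was at 319, 358 and 285 CPM in Ctrl and 131, 275 and 121 CPM in ONC (-0.87 ± 0.26 (SE), edgeR adjusted p = 0.0296), with column 5 near Ctrl. Scgn did not pass without Ctrl 1, Ctrl 2, Ctrl 3, ONC column 3 or ONC column 6 (edgeR adjusted p = 0.0599 to 0.123). Scgn also did not pass with column 5 as the only ONC library (adjusted p = 0.402, edgeR), with columns 3 and 6 summed (adjusted p = 0.117) or in the fit of 6 libraries (adjusted p = 0.0781). Among the 18 ganglion cell markers tested 1 was higher and 3 lower, with a median of -0.50 (5.56% higher, 16.7% lower, 0 and 2 and a median of -0.13 with column 5 alone, 0 and 1 with columns 3 and 6 summed, 0 and 2 with the offsets). Chrnb3 and Chrna6, subunits of nicotinic receptors, were both lower: Chrnb3 was at 16.6, 14.4 and 16.3 CPM in Ctrl and 4.69, 3.95 and 4.38 CPM in ONC (-1.86 ± 0.25 (SE), edgeR adjusted p = 0.00135) and is the stable one, and Chrna6 was at 18, 18.8 and 22 CPM in Ctrl and 4.47, 14.7 and 4.75 CPM in ONC (-1.30 ± 0.43 (SE), edgeR adjusted p = 0.045). Chrna6 did not pass without Ctrl 1, Ctrl 2, Ctrl 3, ONC column 3 or ONC column 6 (edgeR adjusted p = 0.0877 to 0.164). Chrna6 also did not pass with column 5 as the only ONC library (adjusted p = 0.567, edgeR), with columns 3 and 6 summed (adjusted p = 0.161) or in the fit of 6 libraries (adjusted p = 0.0745). Tubb3, class III beta-tubulin, was at 4.66, 7.84 and 6.64 CPM in Ctrl and 12.9, 12.5 and 12 CPM in ONC (0.97 ± 0.33 (SE), edgeR adjusted p = 0.049). Tubb3 did not pass without Ctrl 1, Ctrl 2, Ctrl 3, ONC column 3 or ONC column 6 (edgeR adjusted p = 0.0574 to 0.136). Tubb3 also did not pass with column 5 as the only ONC library (adjusted p = 0.21, edgeR), with columns 3 and 6 summed (adjusted p = 0.0984) or with GC and length offsets (adjusted p = 0.148). Thy1 was at 8.13, 12.8 and 13.5 CPM in Ctrl and 6.49, 11.6 and 7.13 CPM in ONC and Nefl at 20.8, 25.3 and 44.6 CPM in Ctrl and 19.9, 24.5 and 20.4 CPM in ONC, and neither passed (adjusted p = 0.28 and 0.224, edgeR). On the log2 scale, column 5 alone gave -1.02 for Zfhx4 and a median of -0.093 for the bipolar markers.

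Receptors and channels of neurons were called lower far more often than higher. None of 25 ionotropic glutamate receptor genes was higher and 8 were lower, 4 of them stable, with a median of -0.71 (32% lower, 0 and 5 with column 5 alone, 0 and 5 with columns 3 and 6 summed). Grik2, a kainate receptor subunit, was at 16, 12 and 17 CPM in Ctrl and 5.52, 5.08 and 5.54 CPM in ONC (-1.48 ± 0.22 (SE), edgeR adjusted p = 0.00201). Gria2, the AMPA receptor subunit that blocks calcium entry, was at 165, 170.2 and 158 CPM in Ctrl and 66.5, 86 and 68.7 CPM in ONC (-1.16 ± 0.13 (SE), edgeR adjusted p = 0.00101), and with GC and length offsets its log2 fold change was -0.40. Of 23 GABA and glycine receptor genes 7 were lower, 3 of them stable, and none higher, and the median was -0.70 (30.4% lower, 0 and 4 and a median of -0.22 with column 5 alone, 0 and 4 with columns 3 and 6 summed, 0 and 4 with the offsets). Glra3, a glycine receptor subunit, was at 12.7, 14.6 and 12.7 CPM in Ctrl and 3.64, 1.14 and 3.67 CPM in ONC (-2.24 ± 0.47 (SE), edgeR adjusted p = 0.00761). Glra3 did not pass with GC and length offsets (adjusted p = 0.0637, edgeR). In all these genes the ONC libraries were below Ctrl. Voltage-gated channels had 1 of 39 tested members higher and 19 lower, with a median of -0.89 (2.56% higher, 48.7% lower, 0 and 7 with column 5 alone, 1 and 9 with columns 3 and 6 summed, 3 and 21 with the offsets). Kcnip1, a calcium-binding partner of A-type potassium channels, was at 24.7, 17.4 and 25.1 CPM in Ctrl and 8.20, 7.16 and 6.63 CPM in ONC (-1.62 ± 0.22 (SE), edgeR adjusted p = 0.00142). Cacna2d1, an auxiliary calcium channel subunit and the binding site of gabapentin, was at 26.4, 30.1 and 19.8 CPM in Ctrl and 9.47, 5.72 and 8.50 CPM in ONC (-1.68 ± 0.24 (SE), edgeR adjusted p = 0.00171). Beside these lists the amacrine marker sum was 690 to 698 CPM in Ctrl and 346 to 428 CPM in ONC, and its part in them was not tested. On the log2 scale, column 5 alone gave -3.52 for Glra3. The GC and length offsets gave a log2 fold change of -0.79 for Grik2 and -1.11 for Cacna2d1.

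Synaptic adhesion genes were called mainly lower, guidance genes were called lower at a share near that of all genes, and genes of the release machinery were called in both directions. Of 44 synaptic adhesion genes 2 were higher and 13 lower, 6 of them stable, with a median of -0.65 (4.55% higher, 29.5% lower, 1 and 7 with column 5 alone, 1 and 9 with columns 3 and 6 summed, 3 and 10 with the offsets). Cntn4, a contactin, was at 40.6, 42.8 and 38 CPM in Ctrl and 12.9, 17.8 and 11.9 CPM in ONC (-1.51 ± 0.18 (SE), edgeR adjusted p = 0.0011). Cadm1, a synaptic cell adhesion molecule, was higher at 259.6, 315 and 266 CPM in Ctrl and 469, 383 and 431 CPM in ONC (0.61 ± 0.12 (SE), edgeR adjusted p = 0.0061). Of 41 axon guidance genes 1 was higher and 7 lower (2.44% higher, 17.1% lower, 0 and 5 with column 5 alone, 0 and 6 with columns 3 and 6 summed). Robo1 and Robo2, receptors of the repellent Slit, were at 5.59, 4.27 and 3.68 CPM in Ctrl and 0.614, 0.345 and 0.542 CPM in ONC (-3.15 ± 0.57 (SE), edgeR adjusted p = 0.00423) and at 27.9, 30.5 and 22 CPM in Ctrl and 6.84, 11.1 and 7.96 CPM in ONC (-1.64 ± 0.22 (SE), edgeR adjusted p = 0.0014). Sema6a, a transmembrane semaphorin, was at 13.7, 10.5 and 10.9 CPM in Ctrl and 3.68, 3.31 and 3.63 CPM in ONC (-1.72 ± 0.29 (SE), edgeR adjusted p = 0.00323). Every ONC library of these 3 genes lay below Ctrl. Of 41 genes of the synaptic vesicle and release machinery 6 were higher and 9 lower, with a median of 0.11 (14.6% higher, 22% lower, 6 and 5 and a median of -0.11 with column 5 alone, 6 and 4 with columns 3 and 6 summed). Slc17a7, the vesicular glutamate transporter of photoreceptors and bipolar cells, was at 100.4, 99.8 and 111 CPM in Ctrl and 319.9, 159 and 300.0 CPM in ONC (1.32 ± 0.22 (SE), edgeR adjusted p = 0.00292). Vamp2, a vesicle SNARE, was at 71.4, 68.5 and 70.2 CPM in Ctrl and 177, 101 and 178 CPM in ONC (1.12 ± 0.19 (SE), edgeR adjusted p = 0.00357). Unc13c, a priming factor of vesicles, was lower at 66.3, 67.4 and 75.8 CPM in Ctrl and 38.9, 33.2 and 36.7 CPM in ONC (-0.94 ± 0.14 (SE), edgeR adjusted p = 0.00198). The log2 fold change from column 5 alone was 0.64 for Slc17a7 and 0.56 for Vamp2. Offsets for GC and length moved the log2 fold change to 0.96 for Cadm1 and the median of the release machinery list to 0.023.

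G protein and calcium-binding genes were split by direction. Of 41 G protein and RGS genes 6 were higher and 9 lower (14.6% higher, 22% lower, 4 and 4 with column 5 alone, 6 and 5 with columns 3 and 6 summed, 7 and 5 with the offsets). Of 25 EF-hand genes 5 were higher and 7 lower, with 4 stable each way (20.0% higher, 28% lower, 4 and 4 with column 5 alone). Gnb5, the partner of the RGS proteins that end G protein signals in retinal neurons, was at 327, 342 and 313 CPM in Ctrl and 835, 549 and 794 CPM in ONC (1.15 ± 0.15 (SE), edgeR adjusted p = 0.00131). Gng2, a gamma subunit, was at 27.3, 38.6 and 24.1 CPM in Ctrl and 10.1, 8.24 and 8.63 CPM in ONC (-1.74 ± 0.24 (SE), edgeR adjusted p = 0.00148). Cabp4, a calcium sensor of photoreceptor synapses, was at 218, 245 and 236 CPM in Ctrl and 479, 378 and 439 CPM in ONC (0.89 ± 0.12 (SE), edgeR adjusted p = 0.00135). Vsnl1, visinin-like protein 1, a calcium sensor of neurons, was at 21, 21 and 26.6 CPM in Ctrl and 3.95, 7.20 and 4.67 CPM in ONC (-2.12 ± 0.28 (SE), edgeR adjusted p = 0.00134). Calm2, a gene for calmodulin, was among the 10 genes with the largest loss in mean CPM. It was at 2579, 2841 and 2672 CPM in Ctrl and 616, 1864 and 637 CPM in ONC (-1.38 ± 0.34 (SE), edgeR adjusted p = 0.0137), and near copies can split its reads. From column 5 alone the estimate for Calm2 was -0.51 on the log2 scale. Of 29 neuropeptide genes 19 were tested, and 3 were higher and 3 lower, none stable (15.8% higher, 15.8% lower, 2 and 0 with column 5 alone, 1 and 0 with columns 3 and 6 summed, 2 and 1 with the offsets). Vip, vasoactive intestinal peptide, an amacrine cell peptide, was at 1.39, 20.9 and 22.9 CPM in Ctrl and 1.36, 0.148 and 1.79 CPM in ONC (-3.75 ± 1.14 (SE), edgeR adjusted p = 0.0324), with Ctrl 1 inside the ONC range. Vip did not pass without Ctrl 2, Ctrl 3, ONC column 3 or ONC column 6 (edgeR adjusted p = 0.068 to 0.113). Vip also did not pass with column 5 as the only ONC library (adjusted p = 0.0628, edgeR), with columns 3 and 6 summed (adjusted p = 0.0808), with GC and length offsets (adjusted p = 0.0618) or with DESeq2 (adjusted p = 0.0574). Pcsk1n was at 12.3, 12 and 13.3 CPM in Ctrl and 45.9, 14.4 and 42.3 CPM in ONC (1.45 ± 0.36 (SE), edgeR adjusted p = 0.0142), with column 5 near Ctrl. Pcsk1n did not pass without ONC column 3 or ONC column 6 (edgeR adjusted p = 0.051 to 0.0557). Pcsk1n also did not pass with column 5 as the only ONC library (adjusted p = 0.72, edgeR) or with columns 3 and 6 summed (adjusted p = 0.0515).

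Among injury and cytokine signalling genes, the axon injury list was called higher at a share near that of all genes. In the main fit the JAK and STAT list and the DLK to JNK kinase list were called higher at a larger share. With columns 3 and 6 summed, 2 of 21 and 2 of 19 were higher, against 1221 of all 16449 genes tested. Of 23 axon injury and regeneration-associated genes 4 were higher, 1 of them stable, and none lower, with a median of 0.08 (17.4% higher, 1 and 0 and a median of 0.25 with column 5 alone, 2 and 0 with columns 3 and 6 summed). Of 21 JAK and STAT genes 5 were higher, 1 of them stable, and none lower, with a median of 0.32 (23.8% higher, 1 and 0 with column 5 alone, 2 and 0 with columns 3 and 6 summed, a median of 0.18 with the offsets). Tnfrsf12a, the receptor of TWEAK, was at 9.23, 10.6 and 12.1 CPM in Ctrl and 21.9, 24.9 and 18.1 CPM in ONC (1.02 ± 0.20 (SE), edgeR adjusted p = 0.00519). Stat3, the transcription factor activated by cytokines of the interleukin 6 family, was at 20.2, 13.4 and 19.97 CPM in Ctrl and 67.5, 44.2 and 64 CPM in ONC (1.71 ± 0.21 (SE), edgeR adjusted p = 0.0011). Il6st, their shared receptor gp130, was at 13.9, 12 and 17.6 CPM in Ctrl and 34.5, 25 and 32.2 CPM in ONC (1.08 ± 0.19 (SE), edgeR adjusted p = 0.00409). Il6st did not pass with column 5 as the only ONC library (adjusted p = 0.0692, edgeR). Atf3, a transcription factor of injured neurons, was at 9.05, 9.94 and 9.92 CPM in Ctrl and 25.9, 15.7 and 23 CPM in ONC (1.16 ± 0.22 (SE), edgeR adjusted p = 0.00512). Atf3 did not pass with column 5 as the only ONC library (adjusted p = 0.126, edgeR). In the kinase cascade from DLK to JNK 5 of 19 members were higher and 3 lower, none stable (26.3% higher, 15.8% lower, 0 and 1 with column 5 alone, 2 and 1 with columns 3 and 6 summed, 5 and 2 with the offsets). Map3k12, which encodes DLK itself, was at 28.1, 23.3 and 20.3 CPM in Ctrl and 15.4, 10.5 and 17 CPM in ONC (-0.74 ± 0.21 (SE), edgeR adjusted p = 0.025), lower in each ONC library. Map3k12 did not pass without Ctrl 1, Ctrl 2 or ONC column 3 (edgeR adjusted p = 0.072 to 0.12). Map3k12 also did not pass with columns 3 and 6 summed (adjusted p = 0.0659, edgeR), in the fit of 6 libraries (adjusted p = 0.076) or with library totals (adjusted p = 0.05). Tnik, a kinase upstream of JNK, was at 36, 22.9 and 30.9 CPM in Ctrl and 10.7, 14.5 and 10.1 CPM in ONC (-1.35 ± 0.26 (SE), edgeR adjusted p = 0.00524). Tnik did not pass with column 5 as the only ONC library (adjusted p = 0.0977, edgeR). Jund, a member of the AP-1 family, was at 6.93, 7.35 and 6.13 CPM in Ctrl and 20.3, 10.5 and 17.1 CPM in ONC (1.23 ± 0.26 (SE), edgeR adjusted p = 0.00802), and in CKO it was at 7.24, 6.70 and 7.88 CPM. Jund did not pass with column 5 as the only ONC library (adjusted p = 0.284, edgeR). The estimate from column 5 alone, on the log2 scale, was -1.16 for Map3k12. For the axon injury list the median was 0.168 with columns 3 and 6 summed.

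Immediate early genes were called in both directions, and apoptosis and p53 genes at shares below those of all genes. Of 17 immediate early genes 6 were higher and 4 lower, with a median of 0.62 (35.3% higher, 23.5% lower, 1 and 0 and a median of -0.12 with column 5 alone, 4 and 0 with columns 3 and 6 summed, a median of 0.40 with the offsets). Btg2, an antiproliferative gene, was the stable one, at 119, 120.1 and 121 CPM in Ctrl and 211, 173 and 201 CPM in ONC (0.70 ± 0.13 (SE), edgeR adjusted p = 0.00472). Npas4, a transcription factor induced by neuronal activity, was at 1.62, 1.47 and 2.77 CPM in Ctrl and 0.0877, 0.0493 and 0.292 CPM in ONC, with 1 to 7 counts in each ONC library. Npas4 did not pass without Ctrl 3 or ONC column 3 (edgeR adjusted p = 0.0636 to 0.0783). Npas4 also did not pass with column 5 as the only ONC library (adjusted p = 0.0883, edgeR) or with columns 3 and 6 summed (adjusted p = 0.0508). Of 29 apoptosis and p53 genes 3 were higher and 2 lower, none stable (10.3% higher, 6.9% lower, 2 and 0 with column 5 alone, 1 and 0 with columns 3 and 6 summed, 3 and 0 with the offsets). Bcl2l1, which encodes the protective protein Bcl-xL, was at 3.92, 8.26 and 6.88 CPM in Ctrl and 16.1, 11.3 and 14 CPM in ONC (1.12 ± 0.30 (SE), edgeR adjusted p = 0.0196). Bcl2l1 did not pass without Ctrl 1, ONC column 3 or ONC column 6 (edgeR adjusted p = 0.054 to 0.0708). Bcl2l1 also did not pass with column 5 as the only ONC library (adjusted p = 0.238, edgeR), with columns 3 and 6 summed (adjusted p = 0.0588) or with GC and length offsets (adjusted p = 0.0764). Of 11 Krüppel-like factor genes 3 were higher and 1 lower, none stable (27.3% higher, 9.09% lower, 0 and 1 with column 5 alone, 1 and 1 with columns 3 and 6 summed, 2 and 1 with the offsets). Klf9, a brake on axon growth, was at 57.3, 55.3 and 57.7 CPM in Ctrl and 94.1, 74.2 and 95.2 CPM in ONC (0.63 ± 0.17 (SE), edgeR adjusted p = 0.0187). Klf6, which favours it, was at 18, 18.6 and 20.1 CPM in Ctrl and 41, 22.1 and 33.1 CPM in ONC (0.76 ± 0.22 (SE), edgeR adjusted p = 0.0284). Klf9 did not pass without Ctrl 2, ONC column 3 or ONC column 6 (edgeR adjusted p = 0.0505 to 0.059). Klf9 also did not pass with column 5 as the only ONC library (adjusted p = 0.245, edgeR) or with columns 3 and 6 summed (adjusted p = 0.0546). Klf6 did not pass without Ctrl 1, Ctrl 2, Ctrl 3, ONC column 3 or ONC column 6 (edgeR adjusted p = 0.0576 to 0.117). Klf6 also did not pass with column 5 as the only ONC library (adjusted p = 0.588, edgeR) or with columns 3 and 6 summed (adjusted p = 0.0859). Of 28 cell cycle genes 4 were higher and none lower (14.3% higher, 4 and 1 with the offsets). Cdk6, a kinase of the G1 phase, was at 4.34, 4.69 and 5.93 CPM in Ctrl and 19.7, 16.9 and 17.1 CPM in ONC (1.84 ± 0.26 (SE), edgeR adjusted p = 0.0015). Cdkn1c, the inhibitor p57, which Müller glia also express, was at 10.9, 11 and 10.1 CPM in Ctrl and 28.7, 23.1 and 25.1 CPM in ONC (1.26 ± 0.18 (SE), edgeR adjusted p = 0.00173). Under the GC and length offsets the log2 fold change was 1.19 for Klf6.

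Antiviral and antigen presentation genes were called higher at about the share of all genes tested. Of 24 interferon-stimulated genes tested 3 were higher and 1 lower, with a median of 0.74 (12.5% higher, 4.17% lower, 3 and 0 and a median of 0.10 with column 5 alone, 2 and 0 with columns 3 and 6 summed). Ifit1, which blocks translation of foreign RNA and whose promoter is shown above, was at 0.415, 0.14 and 0.395 CPM in Ctrl and 2.06, 5.72 and 1.96 CPM in ONC (3.28 ± 0.61 (SE), edgeR adjusted p = 0.00469). Ifi27 was at 2.31, 4.83 and 2.37 CPM in Ctrl and 9.73, 10.5 and 8.30 CPM in ONC (1.60 ± 0.35 (SE), edgeR adjusted p = 0.00901). Both passed in every analysis, and column 5 was the highest library. Of 19 class I presentation genes 3 were higher and 2 lower (15.8% higher, 10.5% lower, 1 and 1 with column 5 alone, 4 and 3 with the offsets). Psmb8, a catalytic subunit of the immunoproteasome, was at 0.0923, 1.33 and 1.54 CPM in Ctrl and 9.07, 8.24 and 8.30 CPM in ONC (3.11 ± 0.64 (SE), edgeR adjusted p = 0.00688). H2-D1, a classical class I heavy chain, was at 22, 18.9 and 23.6 CPM in Ctrl and 57, 31.1 and 53.2 CPM in ONC (1.13 ± 0.21 (SE), edgeR adjusted p = 0.00461). H2-T23, the nonclassical class I gene of Qa-1, was lower at 125, 93.8 and 135 CPM in Ctrl and 35.4, 70.4 and 52 CPM in ONC (-1.17 ± 0.22 (SE), edgeR adjusted p = 0.00512). H2-D1 did not pass with column 5 as the only ONC library (adjusted p = 0.113, edgeR). Class I genes resemble each other, so reads may be split between them. Of 8 complement genes 2 were higher and 1 lower, none stable (25% higher, 12.5% lower, 0 and 0 with column 5 alone, 0 and 0 with columns 3 and 6 summed, 1 and 0 with the offsets). C4b was at 0.0923, 0.21 and 0.316 CPM in Ctrl and 3.16, 0.247 and 2.29 CPM in ONC, with column 5 inside the Ctrl range. C4b did not pass without Ctrl 1, Ctrl 2, Ctrl 3, ONC column 3 or ONC column 6 (edgeR adjusted p = 0.0661 to 0.121). C4b also did not pass with column 5 as the only ONC library (adjusted p = 0.927, edgeR) or with columns 3 and 6 summed (adjusted p = 0.0936). Of 15 annexin and S100 genes 3 were higher and 1 lower (20.0% higher, 6.67% lower, 4 and 0 with column 5 alone, 3 and 0 with columns 3 and 6 summed, 4 and 0 with the offsets). S100a16 was at 39.2, 35.5 and 42.1 CPM in Ctrl and 74.8, 94.5 and 59.7 CPM in ONC (0.97 ± 0.17 (SE), edgeR adjusted p = 0.00414). S100a6 was at 8.40, 7.0 and 8.90 CPM in Ctrl and 14.8, 15.6 and 12.6 CPM in ONC (0.82 ± 0.19 (SE), edgeR adjusted p = 0.012). On the log2 scale, column 5 alone gave -0.72 for H2-T23.

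Immune and vascular cells left few transcripts. Of 19 markers of microglia and macrophages 5 were tested and none was called; the defining markers P2ry12, Tmem119, Cx3cr1 and Aif1 were at or below 0.281 CPM in each library, and Ccl3 had no count. The sum was 21.1 to 24.3 CPM in Ctrl and 17.1 to 18.3 CPM in ONC. Tyrobp, with the lowest p of the list, was at 1.02, 0.07 and 0 CPM in Ctrl and 0, 0 and 0 CPM in ONC (adjusted p = 0.0589, edgeR). Tyrobp passed without Ctrl 3 (edgeR adjusted p = 0.0426). Tyrobp also passed with no filter (adjusted p = 0.043, edgeR) and with DESeq2 (adjusted p = 0.0224). Of 12 neutrophil and T cell markers 1 was tested, Cd3d, and it did not pass (adjusted p = 0.297). Of 7 endothelial markers tested 2 were higher and 1 lower (28.6% higher, 14.3% lower, 0 and 0 with column 5 alone, 1 and 0 with columns 3 and 6 summed, 2 and 0 with the offsets). Flt1, a receptor of VEGF, was at 3.69, 4.62 and 5.81 CPM in Ctrl and 22, 7.99 and 25.1 CPM in ONC (1.96 ± 0.39 (SE), edgeR adjusted p = 0.00597). Flt1 did not pass with column 5 as the only ONC library (adjusted p = 0.254, edgeR). Of 4 pericyte markers tested only Vtn, vitronectin, was called, at 461, 472 and 525 CPM in Ctrl and 1157, 782 and 989 CPM in ONC (1.01 ± 0.14 (SE), edgeR adjusted p = 0.00172), and it made nearly the whole sum of that list, while Pdgfrb and Rgs5 stayed at or below 2.39 CPM. Of 7 astrocyte markers tested 3 were higher and none lower (42.9% higher, 2 and 0 with columns 3 and 6 summed). The higher markers were Gfap and Aqp4, which Müller glia also express, and Slc1a2, a glutamate transporter that cones and bipolar cells also express. Pax2, which marks astrocytes of the nerve head, stayed at or below 0.212 CPM. Of 5 pigment cell markers tested 2 were lower, Dct and Tyr (40% lower, 1 and 1 with the offsets). Dct was at 433, 343 and 521 CPM in Ctrl and 111, 182 and 104 CPM in ONC (-1.71 ± 0.22 (SE), edgeR adjusted p = 0.0013). Tyr was at 51.8, 44.9 and 70.1 CPM in Ctrl and 17.2, 37.4 and 31.3 CPM in ONC (-0.96 ± 0.26 (SE), edgeR adjusted p = 0.0199), while Rpe65 and Mlana had no count in these libraries. Tyr did not pass without Ctrl 3, ONC column 3 or ONC column 6 (edgeR adjusted p = 0.0508 to 0.0993). Tyr also did not pass with column 5 as the only ONC library (adjusted p = 0.2, edgeR), with GC and length offsets (adjusted p = 0.403) or in the fit of 6 libraries (adjusted p = 0.0551). Of 6 erythrocyte markers 1 was tested, the haemoglobin gene Hba-a1, which was at 0.0462, 0.07 and 0 CPM in Ctrl and 0.789, 0.493 and 0.834 CPM in ONC. Hba-a1 did not pass without Ctrl 1, Ctrl 2, Ctrl 3, ONC column 3 or ONC column 6 (edgeR adjusted p = 0.0724 to 0.109). Hba-a1 also did not pass with columns 3 and 6 summed (adjusted p = 0.0984, edgeR) or with no filter (adjusted p = 0.0517).

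The protein folding and degradation systems moved gene by gene. Of 28 genes of the integrated stress and unfolded protein responses 6 were higher and 3 lower, with a median of 0.14 (21.4% higher, 10.7% lower, 2 and 0 with column 5 alone, 6 and 0 with columns 3 and 6 summed, 6 and 2 with the offsets). Atf4, the transcription factor at the centre of the integrated stress response, was at 205, 187 and 215 CPM in Ctrl and 388, 317 and 365 CPM in ONC (0.82 ± 0.12 (SE), edgeR adjusted p = 0.00182). Dnajc3, an inhibitor of the kinase PERK, was at 55.7, 43.2 and 42.3 CPM in Ctrl and 90.6, 83.5 and 86.3 CPM in ONC (0.88 ± 0.15 (SE), edgeR adjusted p = 0.00285). Ddit3, which encodes CHOP, a death-promoting target of Atf4, was at 206, 208 and 226 CPM in Ctrl and 153, 188 and 137 CPM in ONC (-0.42 ± 0.13 (SE), edgeR adjusted p = 0.0355). Ddit3 did not pass without Ctrl 1, Ctrl 2, Ctrl 3, ONC column 3 or ONC column 6 (edgeR adjusted p = 0.0854 to 0.182). Ddit3 also did not pass with column 5 as the only ONC library (adjusted p = 0.437, edgeR), with columns 3 and 6 summed (adjusted p = 0.165), with GC and length offsets (adjusted p = 0.459), in the fit of 6 libraries (adjusted p = 0.103) or with no filter (adjusted p = 0.0712). Of 31 heat shock genes 7 were higher and 2 lower (22.6% higher, 6.45% lower, 1 and 0 with column 5 alone, 5 and 0 with columns 3 and 6 summed, 9 and 1 with the offsets). Dnajb1, a cofactor of Hsp70, was at 46.3, 52 and 44.6 CPM in Ctrl and 81.8, 92.2 and 79.1 CPM in ONC (0.83 ± 0.13 (SE), edgeR adjusted p = 0.00218). Hsf1, the heat shock factor, was at 16.6, 15.2 and 17.2 CPM in Ctrl and 37.4, 26.4 and 33.3 CPM in ONC (0.98 ± 0.19 (SE), edgeR adjusted p = 0.00513). Hsf1 did not pass with column 5 as the only ONC library (adjusted p = 0.0949, edgeR). Of 31 constitutive proteasome genes 8 were higher and 1 lower (25.8% higher, 3.23% lower, 14 and 0 with column 5 alone). Psmd11, a subunit of the proteasome lid, was at 87.2, 85.5 and 83.1 CPM in Ctrl and 161, 179 and 154 CPM in ONC (0.95 ± 0.13 (SE), edgeR adjusted p = 0.00135). Of 39 lysosome and autophagy genes 14 were higher and 1 lower, 3 of the rises stable, with a median of 0.41 (35.9% higher, 2.56% lower, 7 and 0 and a median of 0.26 with column 5 alone, 8 and 0 with columns 3 and 6 summed, 8 and 0 and a median of 0.21 with the offsets). The stable members named were the cathepsins Ctsz, at 24.7, 17.6 and 28.3 CPM in Ctrl and 72.6, 85 and 65.9 CPM in ONC (1.66 ± 0.19 (SE), edgeR adjusted p = 0.00108), Ctsa, at 39.7, 35.5 and 30.05 CPM in Ctrl and 73.8, 67.4 and 66 CPM in ONC (0.98 ± 0.15 (SE), edgeR adjusted p = 0.00216), and Ctsb, at 184, 200.4 and 156 CPM in Ctrl and 299, 291 and 266 CPM in ONC (0.66 ± 0.12 (SE), edgeR adjusted p = 0.00486). Every ONC library of these 3 proteases stood above Ctrl. The GC and length offsets gave a log2 fold change of 0.51 for Atf4 and 1.49 for Psmd11. The median of the stress response list was 0.043 with column 5 alone and 0.065 with the offsets.

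Glycolysis and core and large oxidative phosphorylation genes were called mainly higher in the main fit, and small accessory subunits only lower. These lists were drawn up with earlier results of these data known, so their opposite directions are no independent test. Of 23 glycolysis genes 10 were higher, 5 of them stable, and 3 lower, with a median of 0.42 (43.5% higher, 13% lower, 9 and 1 and a median of 0.28 with column 5 alone, 9 and 0 with columns 3 and 6 summed, 9 and 2 and a median of 0.23 with the offsets). Ldha, the lactate dehydrogenase of lactate-producing cells such as photoreceptors, was at 1031, 1057 and 1116 CPM in Ctrl and 2558, 1948 and 2395 CPM in ONC (1.11 ± 0.12 (SE), edgeR adjusted p = 0.000651). Hk1, a hexokinase, was at 103, 95.6 and 90.1 CPM in Ctrl and 290.2, 152 and 291 CPM in ONC (1.34 ± 0.22 (SE), edgeR adjusted p = 0.00251), or 0.68 on the log2 scale from column 5 alone. Eno1, an enolase, was at 918, 952 and 884 CPM in Ctrl and 2626, 1712 and 2166 CPM in ONC (1.24 ± 0.14 (SE), edgeR adjusted p = 0.00101). Pgk1, a phosphoglycerate kinase, was lower at 816, 872 and 759 CPM in Ctrl and 528, 726 and 489 CPM in ONC (-0.49 ± 0.15 (SE), edgeR adjusted p = 0.0319). Pgk1 did not pass without Ctrl 1, Ctrl 2, Ctrl 3, ONC column 3 or ONC column 6 (edgeR adjusted p = 0.0655 to 0.145). Pgk1 also did not pass with column 5 as the only ONC library (adjusted p = 0.455, edgeR), with columns 3 and 6 summed (adjusted p = 0.144) or in the fit of 6 libraries (adjusted p = 0.0904). Of 24 core and large subunits of oxidative phosphorylation 7 were higher, 5 of them stable, and none lower, with a median of 0.25 (29.2% higher, 7 and 2 with the offsets). Uqcrc1, a core protein of complex III, was at 306, 348 and 299.9 CPM in Ctrl and 606, 649 and 521 CPM in ONC (0.90 ± 0.12 (SE), edgeR adjusted p = 0.00138). Ndufv1, the NADH-binding subunit of complex I, was at 202, 208 and 193 CPM in Ctrl and 395, 331 and 344 CPM in ONC (0.83 ± 0.11 (SE), edgeR adjusted p = 0.0015). Of 49 small accessory subunits tested none was higher and 25 were lower, with a median of -0.49 and no stable fall (51% lower, 0 and 2 and a median of -0.14 with column 5 alone, 0 and 6 with columns 3 and 6 summed, a median of -0.25 with the offsets). Cox7c, a small subunit of complex IV, was at 571, 518 and 633 CPM in Ctrl and 224, 359 and 208 CPM in ONC (-1.12 ± 0.19 (SE), edgeR adjusted p = 0.00298), with column 5 between the groups of Ctrl and columns 3 and 6. Cox7c did not pass with GC and length offsets (adjusted p = 0.0776, edgeR). The 75 cytosolic ribosomal protein genes had 4 higher and 23 lower, 3 of the falls stable (5.33% higher, 30.7% lower, 1 and 4 with column 5 alone, 1 and 6 with columns 3 and 6 summed). Rpl39 was at 126, 106 and 112 CPM in Ctrl and 56.5, 71.5 and 56.8 CPM in ONC (-0.90 ± 0.14 (SE), edgeR adjusted p = 0.00208). Rpsa was at 170.1, 190.1 and 202 CPM in Ctrl and 353, 285 and 321 CPM in ONC (0.77 ± 0.12 (SE), edgeR adjusted p = 0.00248); ribosomal protein genes have many pseudogene copies that can split reads. The log2 fold change from column 5 alone was -0.65 for Cox7c. Offsets for GC and length moved the log2 fold change to 0.47 for Ndufv1.

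Lipid, redox and metal genes gave further single rises. Of 22 cholesterol synthesis and transport genes 5 were higher and 4 lower, none stable (22.7% higher, 18.2% lower, 0 and 1 with column 5 alone, 3 and 2 with columns 3 and 6 summed). Mvd, an enzyme of the mevalonate pathway, was at 5.26, 8.47 and 6.76 CPM in Ctrl and 23.6, 12.7 and 21.3 CPM in ONC (1.50 ± 0.28 (SE), edgeR adjusted p = 0.00487). Mvd did not pass with column 5 as the only ONC library (adjusted p = 0.139, edgeR). Of 24 Nrf2 and glutathione genes 8 were higher and 2 lower (33.3% higher, 8.33% lower, 3 and 1 with column 5 alone, 5 and 1 with columns 3 and 6 summed). Prdx6, a peroxiredoxin, was at 54.3, 59.9 and 61.6 CPM in Ctrl and 106, 121 and 94.9 CPM in ONC (0.87 ± 0.13 (SE), edgeR adjusted p = 0.00182). Cat, catalase, was at 7.80, 9.24 and 7.31 CPM in Ctrl and 15.2, 16.8 and 14.8 CPM in ONC (0.94 ± 0.21 (SE), edgeR adjusted p = 0.00863). Gstm5, a glutathione transferase, was lower at 223, 216 and 213 CPM in Ctrl and 81.8, 162 and 71.2 CPM in ONC (-1.05 ± 0.24 (SE), edgeR adjusted p = 0.0111), with column 5 nearer to Ctrl and a log2 fold change of -0.40 with that library alone. Of 21 metallothionein and zinc transport genes 6 were higher and none lower (28.6% higher, 2 and 0 with column 5 alone, 4 and 0 with columns 3 and 6 summed). Mt2, a zinc-binding metallothionein, was the stable one at 13.4, 9.87 and 12.3 CPM in Ctrl and 31.8, 35.2 and 28.2 CPM in ONC (1.42 ± 0.19 (SE), edgeR adjusted p = 0.00135); an antisense gene shares 73.5% of its exonic length.

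Cytoskeletal genes included 1 of the largest stable rises, Arhgdia, and opposite changes within families. Of 44 genes of actin and small GTPase control 6 were higher and 6 lower, with 5 stable rises and 1 stable fall (13.6% higher, 13.6% lower, 7 and 1 with column 5 alone, 5 and 2 with columns 3 and 6 summed, 9 and 6 with the offsets). Beside Arhgdia, the GTPase gene Rhoc was at 5.26, 6.09 and 7.04 CPM in Ctrl and 17.3, 15 and 15.7 CPM in ONC (1.38 ± 0.20 (SE), edgeR adjusted p = 0.0018). Pfn1, profilin, which feeds actin monomers to growing filaments, was at 73.9, 73.1 and 68 CPM in Ctrl and 134, 123 and 120.1 CPM in ONC (0.81 ± 0.12 (SE), edgeR adjusted p = 0.00188). Enah, which extends actin filaments in growth cones, was lower at 424, 318 and 444 CPM in Ctrl and 159.7, 215 and 182 CPM in ONC (-1.09 ± 0.15 (SE), edgeR adjusted p = 0.00158). Every ONC library of Enah lay below Ctrl. Of 31 tubulin and microtubule genes 12 were higher and 4 lower, with a median of 0.31 (38.7% higher, 12.9% lower, 3 and 1 and a median of -0.02 with column 5 alone, 6 and 3 with columns 3 and 6 summed, 8 and 3 and a median of 0.21 with the offsets). Tuba1b and Tuba1a, alpha-tubulins of neurons, were at 548, 562 and 592 CPM in Ctrl and 1339, 987 and 1196 CPM in ONC (1.05 ± 0.13 (SE), edgeR adjusted p = 0.0011) and at 293, 315 and 315 CPM in Ctrl and 602, 458 and 559 CPM in ONC (0.81 ± 0.12 (SE), edgeR adjusted p = 0.00208), and another annotated gene shares 22.7% and 26.2% of their exonic lengths. Stmn1, stathmin, which destabilises microtubules, was at 233, 259 and 291 CPM in Ctrl and 103, 189 and 97.8 CPM in ONC (-1.01 ± 0.23 (SE), edgeR adjusted p = 0.0103). Kif5c, a kinesin of axonal transport, was at 36.9, 47.3 and 42.4 CPM in Ctrl and 27.1, 23.2 and 26.1 CPM in ONC (-0.73 ± 0.15 (SE), edgeR adjusted p = 0.00762). Stmn1 did not pass with column 5 as the only ONC library (adjusted p = 0.129, edgeR). Of 18 neurofilament and axonal genes 2 were higher and 4 lower, none stable (11.1% higher, 22.2% lower, 0 and 0 with column 5 alone, 2 and 1 with columns 3 and 6 summed). Offsets for GC and length moved the log2 fold change to 0.43 for Pfn1 and -0.67 for Enah.

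The growth factor list and the TGF-beta and BMP list were called lower above the share of all genes and higher below it. Wnt and Notch genes were called lower at a share below that of all genes. Of 27 FGF and growth factor genes tested 2 were higher and 6 lower, 2 of the falls stable (7.41% higher, 22.2% lower, 2 and 3 with column 5 alone, 1 and 3 with columns 3 and 6 summed, 3 and 5 with the offsets). Fgf2, the basic fibroblast growth factor of Müller glia and photoreceptors, was at 21.1, 20.8 and 22.5 CPM in Ctrl and 27.9, 32.8 and 29.8 CPM in ONC (0.49 ± 0.13 (SE), edgeR adjusted p = 0.018), and in CKO at 90.5, 93.8 and 91.4 CPM. Fgf2 did not pass in the fit of 6 libraries (adjusted p = 0.0563, edgeR). Fgf12 and Fgf13, intracellular relatives that bind sodium channels, were at 33, 31.2 and 35.9 CPM in Ctrl and 11.4, 12.6 and 11.2 CPM in ONC (-1.51 ± 0.18 (SE), edgeR adjusted p = 0.0011) and at 24.3, 25 and 32.1 CPM in Ctrl and 11.8, 12.6 and 13.3 CPM in ONC (-1.11 ± 0.18 (SE), edgeR adjusted p = 0.00275). Of 25 TGF-beta and BMP genes 1 was higher and 5 lower (4% higher, 20.0% lower, 0 and 2 with column 5 alone, 1 and 2 with columns 3 and 6 summed, 1 and 3 with the offsets). Id4, an inhibitor of basic helix-loop-helix factors and a target of BMP signals, was at 20.8, 20.5 and 21.3 CPM in Ctrl and 3.95, 3.80 and 3.79 CPM in ONC (-2.44 ± 0.22 (SE), edgeR adjusted p = 0.000301). Its libraries were tight in both groups. Of 22 Wnt and Notch genes none was higher and 2 were lower, Hey1 and Fzd3 (9.09% lower, 0 and 1 with column 5 alone, 0 and 0 with columns 3 and 6 summed, 1 and 1 with the offsets). Hey1, a Notch target, was at 2.49, 6.30 and 7.0 CPM in Ctrl and 2.37, 0.592 and 1.67 CPM in ONC (-1.76 ± 0.52 (SE), edgeR adjusted p = 0.0284). Hey1 did not pass without Ctrl 2, Ctrl 3 or ONC column 6 (edgeR adjusted p = 0.087 to 0.11). Hey1 also did not pass with columns 3 and 6 summed (adjusted p = 0.0612, edgeR) or in the fit of 6 libraries (adjusted p = 0.0725). Fzd3 did not pass without Ctrl 1, Ctrl 2, Ctrl 3, ONC column 3 or ONC column 6 (edgeR adjusted p = 0.0707 to 0.16). Fzd3 also did not pass with column 5 as the only ONC library (adjusted p = 0.578, edgeR), with columns 3 and 6 summed (adjusted p = 0.154), with GC and length offsets (adjusted p = 0.19) or in the fit of 6 libraries (adjusted p = 0.0833). Of 19 clock genes none was higher and 4 were lower (21.1% lower, 0 and 1 with column 5 alone, 0 and 2 with columns 3 and 6 summed, 2 and 2 with the offsets). Per2, a repressor of the clock, was at 12.9, 10.8 and 12 CPM in Ctrl and 3.11, 4.93 and 3.29 CPM in ONC (-1.65 ± 0.30 (SE), edgeR adjusted p = 0.00436). Per2 did not pass with column 5 as the only ONC library (adjusted p = 0.1, edgeR). The sources used here do not state the time of day of sampling. Of 44 splicing factors 4 were higher and 12 lower (9.09% higher, 27.3% lower, 2 and 4 with column 5 alone, 1 and 4 with columns 3 and 6 summed, 9 and 7 with the offsets). Nova1 and Elavl4, RNA-binding proteins of neurons, were at 13.7, 19.2 and 14.7 CPM in Ctrl and 3.55, 4.34 and 4.46 CPM in ONC (-1.94 ± 0.34 (SE), edgeR adjusted p = 0.0035) and at 14.3, 25.4 and 27.2 CPM in Ctrl and 7.28, 6.17 and 7.17 CPM in ONC (-1.70 ± 0.29 (SE), edgeR adjusted p = 0.00332). Of 7 crystallin genes tested 2 were higher and none lower (28.6% higher). These were Crym and Cryl1, which are enzyme-like members and not lens alpha-, beta- or gamma-crystallins. On the log2 scale, column 5 alone gave -3.11 for Hey1. Under the GC and length offsets the log2 fold change was 0.91 for Fgf2 and -1.08 for Elavl4.

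**Figure D5:**
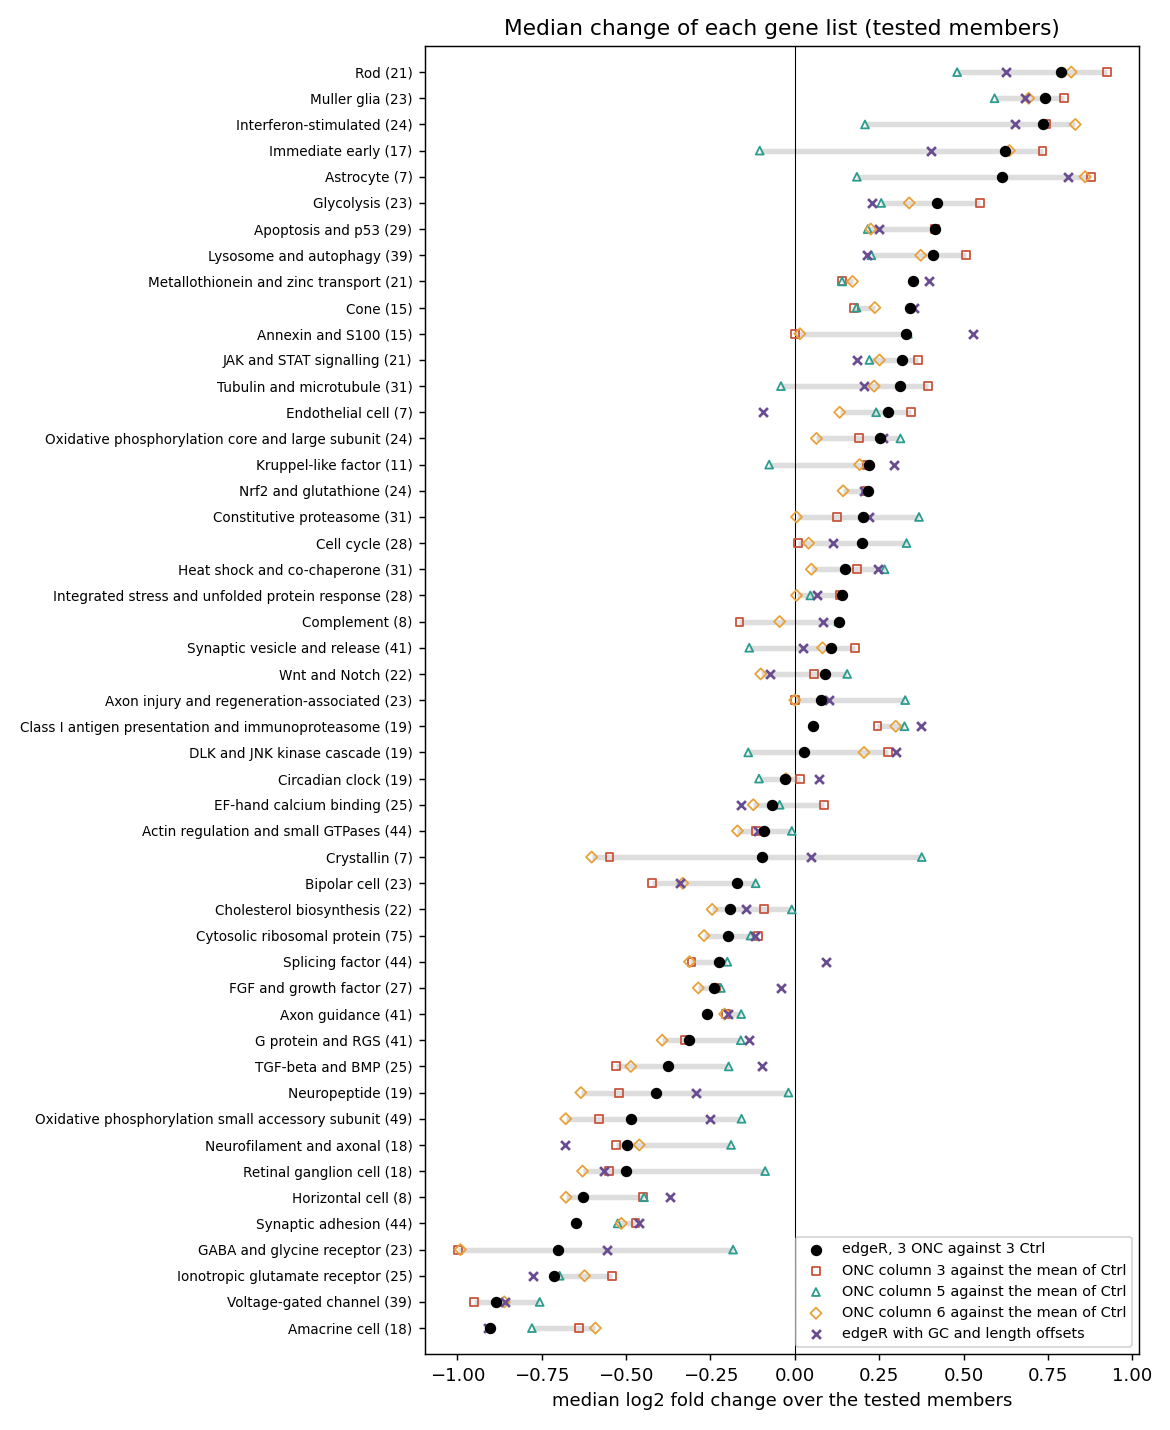
Median log2 fold change over the tested members of each gene list with at least 7 tested members (number in brackets), from the main fit, from each ONC column alone against the Ctrl mean and from the fit with GC and length offsets (x axis, log2). Amacrine, voltage-gated channel and glutamate receptor lists lie lowest at -0.90, -0.89 and -0.71, and the rod and Müller glia lists lie highest at 0.79 and 0.74.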

How the data were processed

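Per the labels' protocols, cDNA of FACS-sorted cells was amplified (Discover-sc WTA Kit V2) and tagmented into libraries (TruePrep DNA Library Prep Kit V2). Trimmomatic 0.36 and the mouse builds GRCm38 and mm10 are named in the submitters' processing notes; the aligner, the counting tool and whether counts were assigned by strand are not given in the sources used here. The authors deposited expected counts per gene, not normalized and not all whole, for 9 libraries. These were rounded to whole numbers before testing. The other 9 value columns of the table were not used. Of 21970 Ensembl entries, 21956 were matched to GENCODE M21 for symbols, lengths and GC content; 2802 entries were loci assembled by the authors.

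The main test was edgeR 4.0.16 (R 4.3.3): genes passing filterByExpr by group, TMM scaling, a quasi-likelihood fit with 1 mean per group on all 9 libraries, the contrast ONC minus Ctrl and Benjamini-Hochberg adjustment over all genes tested, at an adjusted p under 0.05. The standard error is the size of the log2 fold change over the square root of F. ONC and CKO share the Ctrl libraries. On simulated counts the fit returned the simulated fold on average but found fewer of the changed genes than first required. The 15 alternatives were RLE factors, library totals, no filter, a filter of 1 CPM in 6 libraries, DESeq2 1.42.0, a fit of 6 libraries, columns 3 and 6 summed, column 5 alone, offsets for GC content and length over the 14207 genes with a GC value, and each of the 6 libraries left out. A gene with no test in an alternative does not count as passing in it.

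Named genes are the 15 largest rises and falls with groups that do not overlap and a mean of at least 16 counts and 1 in log2 CPM, the 10 largest gains and losses in mean CPM, up to 3 members per direction with the lowest p in each of 40 pathway lists and 14 cell type lists, the 10 largest rises and falls passing everywhere, and any cell type marker. The genes and lists were chosen with earlier results of these data known. Members not found under their symbols (Tusc5, Rlbp1l2, Septin4 and Trac among the markers, Phr1 and Ndufb1 in the pathway lists) were not used here, and some genes that the rule names are not reported here. Promoters are RefSeq sequences (GRCm38.p6) of 250 bases before to 50 after the start, of which the 200 bases before the start were searched. Precision is limited by 3 libraries per group, and limits on counts of 0 cover counting error only.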

Additional observations from a re-analysis of the deposited data

How the results depend on the processing

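No paired analysis was possible because the numbers of the ONC columns in the table (3, 5 and 6) do not match the replicate numbers of the labels. Against 2057 higher and 2023 lower genes, a fit of only the 6 libraries called 1188 lower, columns 3 and 6 summed as 1 library 1221 higher and 718 lower, and column 5 alone 738 and 427. GC and length offsets, tested over the 14207 genes with a GC value, called 1140 lower against 1761 of the same genes in the main fit. Leaving out 1 library at a time gave 1108 to 3808 higher and 675 to 3836 lower genes; the highest counts came without column 5, and the lowest without column 3. The fit without column 5 compared the 2 near-identical columns with Ctrl. The other scalings, filters and DESeq2 kept both counts within 1.5 times. Over those genes the median log2 fold change was -0.008 in the main fit and 0.08 with the offsets. Over the 23733 genes tested with no filter it was -0.20, against -0.04. Of the 253 named genes, 186 had the same call with columns 3 and 6 summed as in the main fit, and fewer had it with column 5 alone. Genes called in neither fit are counted in this. With GC and length offsets the log2 fold change of 5 genes turned sign, to 0.15 for Gngt1, 0.0014 for Rp1, 0.043 for Tbca, 0.19 for Homer1 and 0.072 for Clock, and that of Aqp4 was -0.00016 with column 5 alone. The cause was not tested.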
